A study of Homo sapiens with 6 samples.

Results

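The mRNA levels of 10 keratin genes were followed in Hey and SKOV3, established human ovarian cancer cell lines, through paclitaxel treatment and recovery. The genes, KRT5, KRT6A, KRT7, KRT8, KRT17, KRT18, KRT19, KRT80, KRT81 and KRT86, were taken by symbol, and all 10 were found among the 59008 gene symbols measured. RNA was sequenced from untreated parental cells, from polyploid giant cancer cells (PGCCs) and from the daughter cells that budded from them, with 1 library for each of the 6 combinations of line and state. PGCCs and daughter cells had received 500 nM paclitaxel, which locks microtubules in place so that cells cannot complete mitosis, for 16 h by the treatment labels and up to 18 h by the protocol. The treatment labels give 3 days of recovery for PGCCs and 30 days for daughter cells, while the title of the SKOV3 PGCC library gives day 7. Each daughter library is titled clone 1, so its values describe the clone sampled. Hey was grown in MEM Eagle medium and SKOV3 in RPMI-1640 medium, so line and medium cannot be told apart. No condition was replicated and the values carry no replicate error. The level of each gene is given in transcripts per 1000000 (TPM), which corrects for transcript length, so that levels of different genes can be set side by side.

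Keratins are the intermediate filament proteins of epithelial cells. A filament is built from pairs of an acidic type I and a basic type II keratin, and a type I protein without a type II partner is generally unstable. KRT8 and KRT18 are the first pair made in simple epithelia, KRT7 and KRT19 are added in ducts and glands, KRT5 marks basal cells of stratified epithelia, and KRT6A and KRT17 are switched on in wounded or stressed epidermis. KRT81 and KRT86 are best known from hair. Pathologists use keratins, KRT7 among them, to identify carcinomas of the ovary.

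For some of these genes the sequence sets a limit on what a level can mean, so it is shown first. KRT81 and KRT86 both lie in the type II cluster, on opposite strands (KRT81 at chr12:52285913-52291534, minus strand, and KRT86 at chr12:52249300-52309163, plus strand, GRCh38), and the annotated KRT86 gene spans KRT81. Their coding sequences, of 1518 and 1461 bases, were identical at 89.6% of aligned positions and shared 1 run of 605 bases without a difference, coding positions 61 to 665 in both. The first 120 bases of that run are given below. In KRT81 they lie at chr12:52291286-52291405 on the minus strand and in KRT86 at chr12:52301977-52302096 on the plus strand, in a coding exon of each gene.
KRT81 and KRT86: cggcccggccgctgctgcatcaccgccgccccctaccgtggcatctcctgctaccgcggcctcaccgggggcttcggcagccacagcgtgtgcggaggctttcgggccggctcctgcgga
A read from this stretch belongs equally to either gene. Of all distinct 31-base words in the transcripts of KRT81, 53.2% also occurred in transcripts of other genes, and for KRT86 the share was 43.3%. The levels of KRT81 and KRT86 are therefore uncertain. The same holds for KRT6A, whose coding sequence was 97.5% identical to KRT6B and 97.9% identical to KRT6C, and of whose 31-base words 44.1% were shared. For KRT18 the share was 29.4%, for KRT17 23.7% and for KRT8 19.0%, and for KRT5, KRT7, KRT19 and KRT80 it was at most 6.42%.

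KRT5 was listed at 0 in every Hey library and present in every SKOV3 library, as was the scarce KRT6A. Its promoter is shown as that of the member with this pattern that the promoter table holds. The 150 bases before its start in RefSeq (chr12:52520395-52520544, minus strand, GRCh38.p14, RefSeq) hold 4 CG pairs, given in capitals. The KRT5 gene of GENCODE 44 begins farther upstream, at 52520530, so most of this window lies inside the gene as GENCODE draws it.
KRT5: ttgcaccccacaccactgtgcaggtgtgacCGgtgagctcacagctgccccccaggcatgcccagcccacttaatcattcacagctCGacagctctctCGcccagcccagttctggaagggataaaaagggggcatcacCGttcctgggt
The window of 300 bases around this start, from 250 before it to 50 after it, held 7 CG pairs, against a median of 14 over the 35116 promoters of the table. On either strand it held no match to the TATA-box letters TATAAA, found in 11.5% of all promoters of that length. Only the exact letters were searched, and the printed bases do hold gataaa, which differs in its first letter. The absence of a match therefore does not mean that a TATA-like element is absent. It also held no match to the GC-box letters GGGCGG, found in 45.0%, or to the AP-1 letters TGANTCA, found in 7.71%.

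The simple epithelial keratins KRT7, KRT8 and KRT18 were the abundant members in both lines. KRT8, the type II partner of KRT18 (chr12:52897187-52949954), stood at 464 TPM in Hey parental cells, 345 TPM in Hey PGCCs and 459 TPM in Hey daughter cells, and at 411, 1052 and 319 TPM in the same states of SKOV3. The Hey libraries thus lay close together, while the SKOV3 PGCC library stood above the other 5. KRT18 (chr12:52948871-52952906), the type I gene that sits beside KRT8 in the type II cluster, had 518, 374 and 672 in Hey and 220, 420 and 414 in SKOV3. Its values in the lines overlapped, with the lowest in SKOV3 parental cells and the highest in Hey daughter cells. The annotated KRT8 and KRT18 genes overlap on opposite strands, and the sources used here do not state whether the reads were counted by strand. KRT7 (chr12:52232520-52252186) had 339, 312 and 851 in Hey and 417, 930 and 487 in SKOV3. It was highest in daughter cells of Hey but in PGCCs of SKOV3.

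KRT19, a small type I keratin of glandular epithelia (chr17:41523617-41528308), was an abundant mRNA in only 1 of the lines. It stood at 2.47 TPM in Hey parental cells and at 3.60 TPM in Hey PGCCs, and it was listed at 0 in Hey daughter cells. In SKOV3 it was 292, 711 and 80.2. The lowest SKOV3 value lay far above the highest Hey value, and within both lines PGCCs were highest and daughter cells lowest.

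KRT5 and KRT17, a basal and a stress keratin, followed the same division between the lines, and the stress keratin KRT6A was scarce in both. KRT5 (chr12:52514575-52520530) was listed at 0 in the 3 Hey libraries and stood at 23.3 TPM in SKOV3 parental cells, 39.4 TPM in SKOV3 PGCCs and 85.6 TPM in SKOV3 daughter cells. It was the member whose highest SKOV3 value fell in daughter cells. KRT17, a type I stress keratin (chr17:41619442-41624842), had 0.171 TPM in Hey parental cells, rose to 3.25 TPM in Hey PGCCs and was listed at 0 in Hey daughter cells, against 56.2, 85.2 and 23.9 in SKOV3. Its order of states was that of KRT19 in both lines. KRT6A (chr12:52487176-52493257), the type II gene often induced together with KRT17 in skin wounds, was listed at 0 in Hey and had 0.804, 0.657 and 0.260 in SKOV3, so it did not reach a TPM of 1 in any library.

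KRT80, a type II keratin found in many epithelia (chr12:52168996-52192014), stood at 5.75 TPM in Hey parental cells, 9.71 TPM in Hey PGCCs and 38.2 TPM in Hey daughter cells, and at 74.4, 171 and 79.9 TPM in the same states of SKOV3. The ranges of the lines did not overlap, although Hey daughter cells came closest. The hair keratins were scarce. KRT81 had 0.647, 3.83 and 1.44 in Hey and 3.08 and 4.33 in SKOV3 parental cells and PGCCs, and was listed at 0 in SKOV3 daughter cells. KRT86 ranged from 0.0236 in Hey parental cells to 0.903 in SKOV3 PGCCs. KRT6A and KRT86 were the members with a mean TPM under 1, which left 8 of the 10 genes above that limit.

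**Figure D1:**
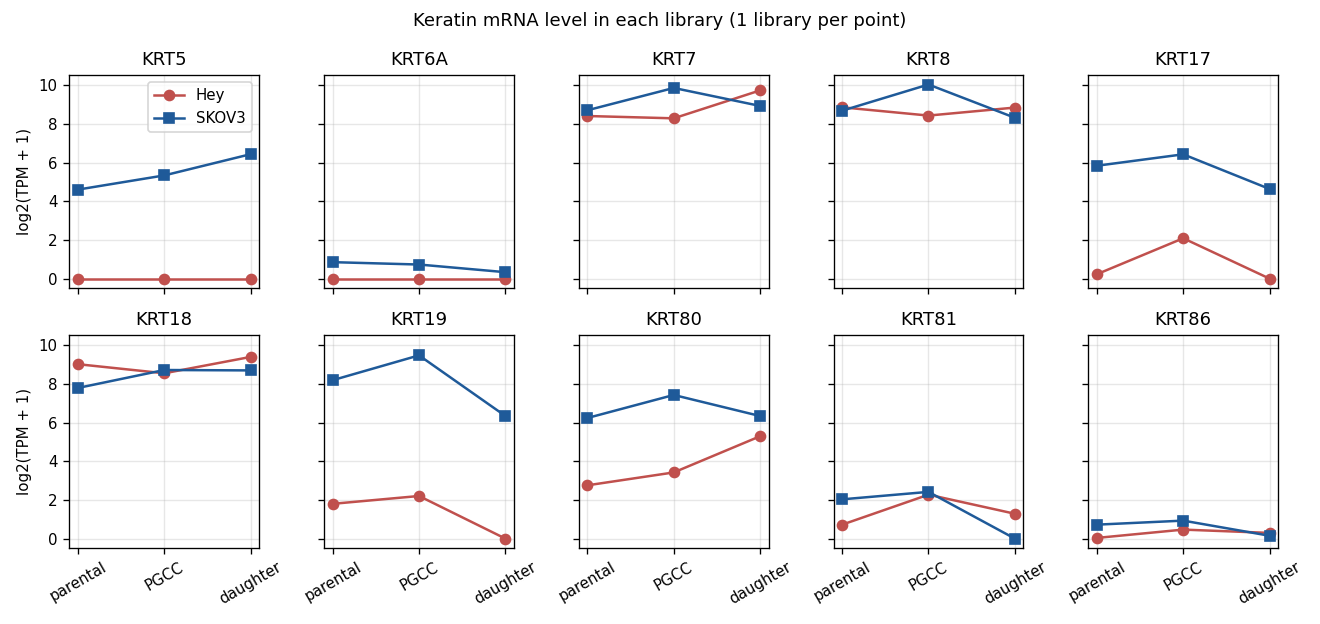
Level of each of the 10 keratin genes as log2(TPM + 1) (vertical axis) in parental cells, PGCCs and daughter cells (horizontal axis) of Hey (circles) and SKOV3 (squares). Each point is 1 library, and lines join the libraries of a cell line. The ranges of KRT7, KRT8 and KRT18 overlap between the lines, while KRT5, KRT17, KRT19 and KRT80 of SKOV3 lie above those of Hey in every state.

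The largest differences among the keratins were those of KRT19, KRT5 and KRT17 between the cell lines, in each state. For KRT8, KRT81 and KRT86 the largest difference was between states of SKOV3. KRT19, KRT5, KRT17 and KRT80 were lower in Hey than in SKOV3 in all 3 states. On the log2(TPM + 1) scale the difference of Hey from SKOV3 for KRT19 was -6.40 between parental cells, -7.27 between PGCCs and -6.34 between daughter cells. For KRT5 it was -4.60, -5.34 and -6.44, and for KRT17 -5.61, -4.34 and -4.64. For KRT80 it was -3.48, -4.01 and -1.05, so the lines were much nearer to each other in daughter cells, and both median-ratio scaling (-0.65) and removal of the trend in transcript GC content and length (-0.61) took that last value below 2-fold. A difference of at least 1 on this scale, a 2-fold change, was called.

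Over the 3 states, limma with state as a covariate gave a mean difference of Hey from SKOV3 of -6.67 for KRT19 (standard error 0.338, adjusted p = 0.000116 by limma), lower in Hey in 3 of 3 states. The values by limma were -5.46 for KRT5 (standard error 0.441, adjusted p = 0.00045), -4.86 for KRT17 (standard error 0.383, adjusted p = 0.000398) and -2.85 for KRT80 (standard error 0.559, adjusted p = 0.0135). KRT7, KRT8, KRT18 and KRT81 did not pass, with adjusted p values by limma of 0.599, 0.651, 0.26 and 0.956. Thus 4 of the 8 members tested were called, all lower in Hey, where 14.4% of the 14988 genes tested were called lower and 6.27% higher. The filter, a mean of at least 1 TPM over the 6 libraries, lets in genes through the line where they are high. KRT5, listed at 0 in Hey, passed it only through SKOV3. The count and the p values by limma are therefore not separate support for a difference between the lines. The fit has 2 residual degrees of freedom, and the 3 libraries of a line share their origin, so the error is the spread between states and not between separate cultures. When all genes with a TPM above 0 were tested, KRT80 did not pass (adjusted p = 0.114 by limma), while its adjusted p lay between 0.0102 and 0.0245 under the other settings, the main one included.

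State by state, 1 member was higher and 5 were lower in Hey than in SKOV3 parental cells (KRT18 higher; KRT5, KRT17, KRT19, KRT80 and KRT81 lower), where 11.5% and 24.2% of the 14988 genes averaging 1 TPM or more were called higher and lower. In PGCCs 0 were higher and 6 lower, since KRT7 (-1.57) and KRT8 (-1.61) also passed 2-fold there, against 13.4% and 29.6% of genes. In daughter cells 1 was higher (KRT81, 1.28) and 4 lower, against 12.3% and 29.5%. The median difference of the 10 members was -1.08, -1.59 and -0.093, and that of the 14988 genes -0.29, -0.35 and -0.38. The 8 members that average 1 TPM or more, as those genes do, had medians of -2.40, -2.81 and -0.26. Median-ratio scaling moved the medians of the 14988 genes by 0.28, 0.27 and 0.36. In PGCCs the difference between the lines followed GC content, with a Spearman correlation of -0.367 over 13470 genes. The 2352 other genes in the GC range of the keratins had a median of -1.03 there. Of them 51.1% were called lower in PGCCs, against 22.2% in parental and 29.9% in daughter cells. With the trend of the difference in transcript GC content and length removed, KRT7 (-0.48) and KRT8 (-0.63) in PGCCs were below 2-fold. In daughter cells KRT7 and KRT18, at 0.80 and 0.70, passed 2-fold as higher in Hey with the trend removed (1.13 and 1.03) and with median-ratio scaling (1.21 and 1.10).

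**Figure D2:**
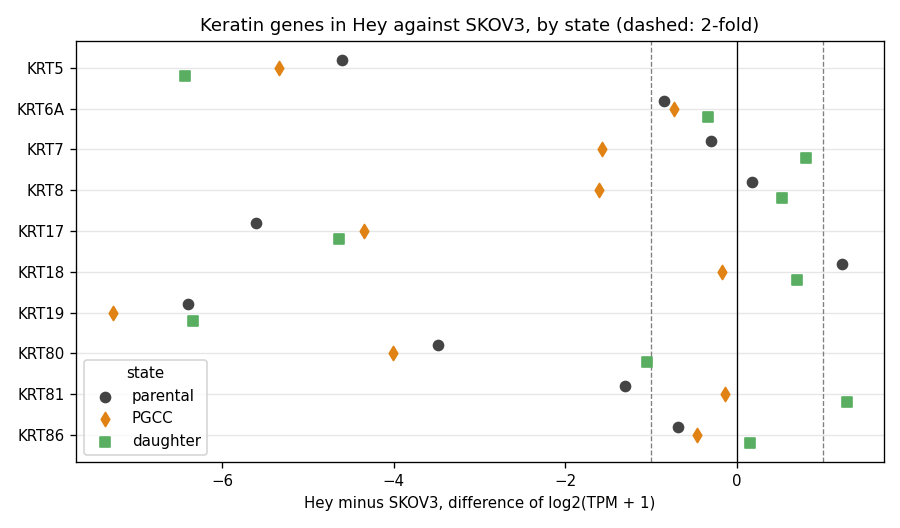
Difference of Hey from SKOV3 in log2(TPM + 1) (horizontal axis) for each keratin gene (rows), in parental cells (circles), PGCCs (diamonds) and daughter cells (squares), 1 library each. Dashed lines mark 2-fold. The points of KRT5, KRT17 and KRT19 lie at -4.34 or lower in all 3 states, and those of KRT18 lie between -0.17 and 1.23.

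Hey therefore carried a narrower set of keratin mRNAs. Summed over the 10 genes, Hey parental cells had 1330 TPM, Hey PGCCs 1051 TPM and Hey daughter cells 2022 TPM, against 1499, 3415 and 1491 TPM in the same states of SKOV3. KRT7, KRT8 and KRT18 made up 99.3%, 98.0% and 98.0% of the sum in Hey, but 70.0%, 70.3% and 81.9% in SKOV3. KRT19 made up 19.5% of the sum in SKOV3 parental cells, 20.8% in SKOV3 PGCCs and 5.38% in SKOV3 daughter cells. The sum in PGCCs was 0.791 times that of parental cells in Hey and 2.28 times in SKOV3, while in daughter cells it was 1.52 times the parental sum in Hey and 0.994 times in SKOV3. In SKOV3 PGCCs against parental cells, the 2352 other genes in the GC range of the keratins had a median log2(TPM + 1) difference of 0.71. The sums were not corrected for this GC trend, which is described below. In bulk RNA, fewer cells of a kind and less mRNA per cell cannot be told apart.

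**Figure D3:**
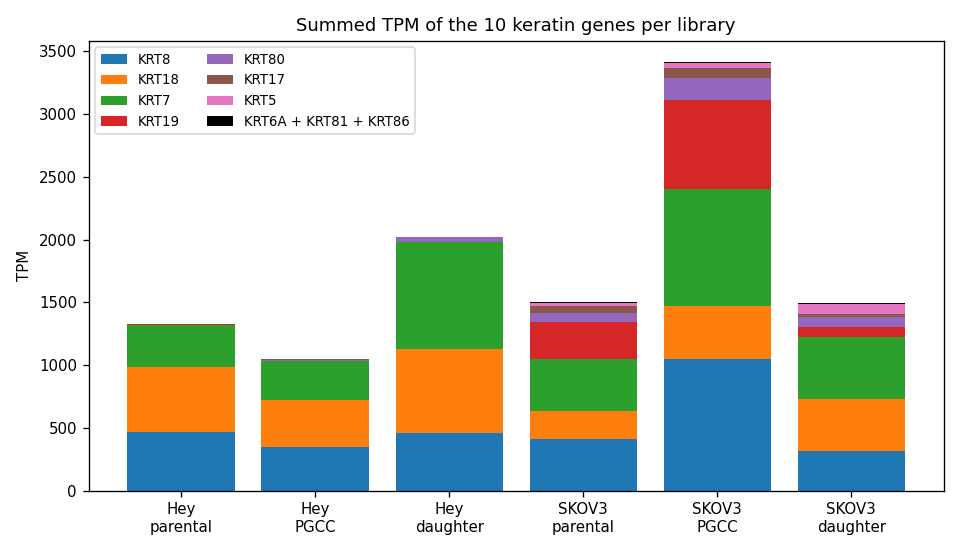
Summed TPM of the 10 keratin genes (vertical axis, linear from 0) in each of the 6 libraries, with the genes stacked and KRT6A, KRT81 and KRT86 drawn as 1 part. The SKOV3 PGCC bar (3415) is the tallest, and KRT19 takes a visible part in the SKOV3 bars but not in the Hey bars.

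Because type I and type II proteins pair, the balance of their mRNAs was also computed. The 3 type I members (KRT17, KRT18 and KRT19) summed to 0.643 times the 7 type II members in Hey parental cells, to 0.567 times in Hey PGCCs and to 0.498 times in Hey daughter cells. In SKOV3 the ratio was 0.611, 0.554 and 0.533, so in all 6 libraries type II mRNA was in excess among these genes. With every type I and type II keratin gene of the table counted, the ratio lay between 0.523 and 0.719. The ratio of KRT8 to KRT18 was 0.896, 0.922 and 0.683 in Hey, but 1.86, 2.50 and 0.770 in SKOV3. KRT8 thus exceeded KRT18 in SKOV3 parental cells and PGCCs and was below it in the other 4 libraries.

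In PGCCs compared with parental cells, different keratins were called in the 2 lines. In Hey, KRT17 (difference 1.86) and KRT81 (1.55) were higher, both from a TPM under 1, and 0 members were lower. In SKOV3, KRT8 (1.35), KRT19 (1.28), KRT80 (1.19) and KRT7 (1.15) were higher and 0 were lower, while KRT18 (0.93) and KRT5 (0.73) did not reach 2-fold. The 2 members higher and 0 lower in Hey stand against 7.67% of the 14988 genes called higher and 5.22% called lower. The 4 higher and 0 lower in SKOV3 stand against 9.94% and 4.96%. Of all 59008 symbols, 2.58% were called higher in Hey and 2.88% in SKOV3. No member was called in both lines. The share of all genes called in both lines was not computed, so this cannot be read as a trait of the keratins. The abundant Hey keratins KRT7, KRT8 and KRT18 differed by -0.12, -0.43 and -0.47, in each case less than 2-fold.

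The SKOV3 values have to be read beside the base composition of the transcripts. The 10 keratin transcripts are GC-rich, from 55.8% for KRT6A to 62.3% for KRT81. In SKOV3 the difference between PGCCs and parental cells followed GC content over 13470 genes, with a Spearman correlation of 0.721 across genes, which are not independent replicates, and in Hey the correlation was -0.045. The 2352 other genes in the GC range of the keratins had a median difference of 0.71 in SKOV3 and 23.9% of them were called higher. The median of the 10 keratins was 0.83. That of the 8 averaging 1 TPM or more, as the other genes in the range do, was 1.04. In Hey the same genes had a median of -0.045, with 4.85% called higher, and the keratin median was 0.20. After the trend in GC content and length had been taken out, 0 members were called in SKOV3, with KRT8 at 0.68, KRT80 at 0.63, KRT19 at 0.46 and KRT7 at 0.32, while KRT17 (1.91) and KRT81 (1.62) remained above 2-fold in Hey. The trend cannot be told apart from the SKOV3 PGCC library itself, since the condition has 1 library.

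**Figure D4:**
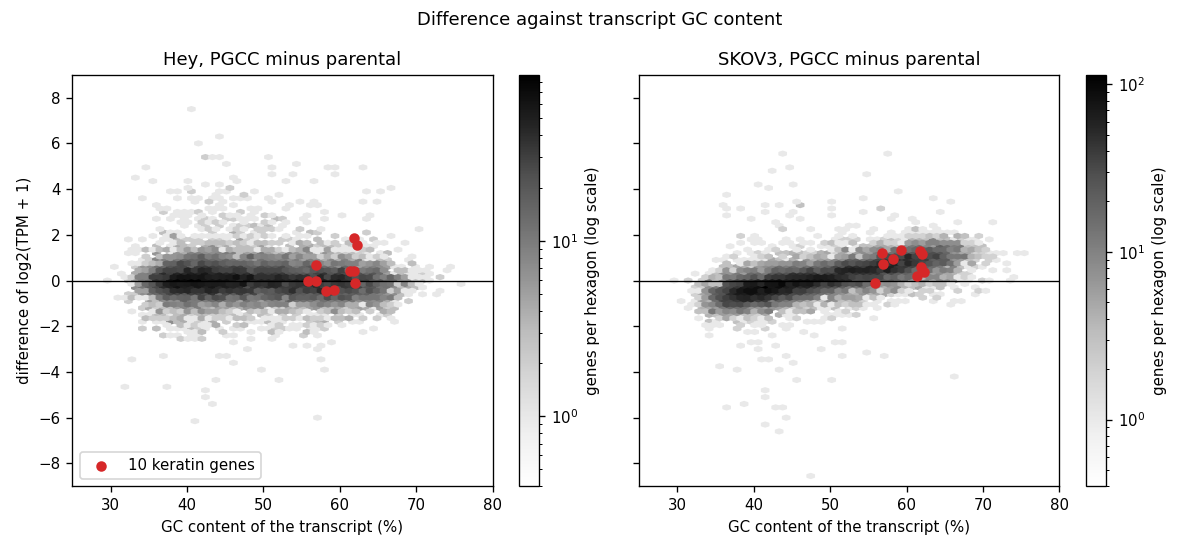
Difference between PGCCs and parental cells in log2(TPM + 1) (vertical axis) against the GC content of the transcript in percent (horizontal axis) for genes averaging 1 TPM or more and the keratins, in Hey (left) and SKOV3 (right). Grey hexagons show the number of genes on a log scale and red points the 10 keratin genes. In SKOV3 the cloud rises with GC content (Spearman 0.721) and the keratins lie within it, while in Hey the cloud is flat (-0.045).

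In daughter cells compared with PGCCs, KRT19 and KRT17 were lower in both lines. The difference of KRT19 was -2.20 in Hey, where it was listed at 0 in daughter cells, and -3.13 in SKOV3, from 711 to 80.2. That of KRT17 was -2.09 in Hey, where it was also listed at 0 in daughter cells, and -1.79 in SKOV3, from 85.2 to 23.9. In Hey both genes were scarce to begin with. The share of all genes called lower in both lines was not computed, for this comparison or the others. Being lower in both lines therefore cannot be read as a trait of the keratins. With the GC and length trend removed both genes stayed below -1 in both lines, at -2.37 and -2.57 for KRT19 and -2.25 and -1.24 for KRT17. By limma over both lines the difference of KRT19 was -2.67 (standard error 0.414), lower in 2 of 2 lines, and it did not pass (unadjusted p = 0.000291, adjusted p = 0.587 by limma).

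KRT7 and KRT80 moved apart between the lines in the same comparison. KRT7 was 1.44 higher in daughter cells than in PGCCs of Hey and 0.93 lower in SKOV3 (difference -0.93). KRT80 was 1.87 higher in Hey and differed by -1.09 in SKOV3, a value that fell short of 2-fold with mitochondrial genes left out (-0.97) or the GC and length trend removed (-0.87). In SKOV3 daughter cells KRT8 (-1.72) and KRT81 (-2.42) were lower as well, and KRT5 (1.10) was higher, though not 2-fold with median-ratio scaling (0.95). In all, 2 members were higher and 2 lower in Hey, against 9.95% and 8.13% of the 14988 genes. KRT81 in Hey, at -0.99, was just short of 2-fold and passed it under all 4 alternatives run for single genes (-1.35 with a pseudocount of 0.1, -1.05 with median-ratio scaling, -1.07 without mitochondrial genes and -1.16 with the trend removed), which would make it lower in both lines like KRT17 and KRT19. In SKOV3 1 was higher and 5 were lower, against 14.6% and 9.25%. The SKOV3 difference of all genes again followed GC content, here with a Spearman correlation of -0.455. The genes in the GC range of the keratins had a median of -0.39. For the 10 members it was -1.01, and for the 8 averaging 1 TPM or more -1.40. This comparison and the one before use the same PGCC libraries.

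Compared with parental cells, the daughter cells of both lines had less KRT19 mRNA, with differences of -1.80 in Hey and -1.85 in SKOV3. In SKOV3 this was a decline from 292 to 80.2, and in Hey from 2.47 to a listed 0. Here too the share of all genes lower in both lines was not computed. In Hey, KRT80 (2.54, from 5.75 to 38.2) and KRT7 (1.32, from 339 to 851) were higher. In SKOV3, KRT5 (1.83, from 23.3 to 85.6) was higher and KRT17 (-1.20) and KRT81 (-2.03) were lower, while KRT18 stood at 0.91. These counts, 2 higher and 1 lower in Hey, compare with 6.31% and 3.73% of the 14988 genes, and 1 higher and 3 lower in SKOV3 with 15.1% and 6.34%. GC content was only weakly related to these differences, with Spearman correlations across genes of 0.088 in Hey and 0.151 in SKOV3, and the same members were called after the trend was removed.

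The state differences over both lines were not past the threshold of limma for any keratin gene tested. For PGCCs against parental cells 0 of 8 members had an adjusted p under 0.05 (1 at an unadjusted p under 0.05, KRT17), where 0.0200% of genes passed. For daughter against parental cells it was 0 of 8 (1 unadjusted, KRT19), where 0.0133% of genes passed. For daughter cells against PGCCs it was 0 of 8 (3 unadjusted, KRT17, KRT19 and KRT81), where 0.00% of genes passed. With 2 lines as the only repeats, differences that the lines do not share enter the error.

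**Figure D5:**
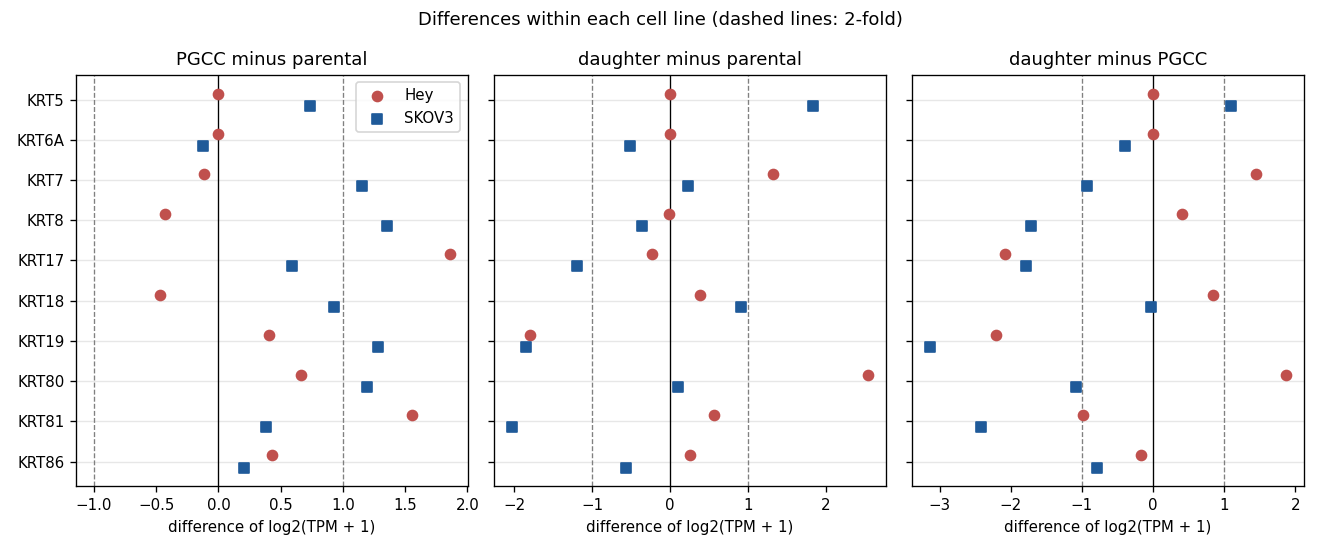
Difference in log2(TPM + 1) (horizontal axes) for each keratin gene (rows) in 3 comparisons of states (panels), in Hey (circles) and SKOV3 (squares), each from 1 library against 1 library. Dashed lines mark 2-fold. KRT17 and KRT19 lie left of -1 in both lines for daughter cells minus PGCCs, and KRT7 and KRT80 lie on opposite sides of 0.

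The rest of the keratin family was mostly scarce. Of 45 other keratin genes 9 reached a TPM of 1 in some library and 3 reached 5, namely KRT10, KRT14 and KRT4. KRT10, a type I keratin of differentiating epidermis, stood at 26.1, 46.8 and 30.8 TPM in Hey parental cells, PGCCs and daughter cells and at 95.4, 37.3 and 56.2 TPM in SKOV3. It was lower in PGCCs than in parental cells of SKOV3 (-1.33), the opposite of the members called there. KRT14, the usual type I partner of KRT5, had at most 0.0313 in Hey and 5.64, 10.7 and 3.29 in SKOV3, below KRT5 in every SKOV3 library. The 51 KRT8 pseudogenes summed to between 5.47 and 13.4 TPM, at most 3.66% of KRT8 itself, and the 67 KRT18 pseudogenes to at most 2.01 TPM, or 0.485% of KRT18. These shares are what the quantification assigned, and reads common to gene and pseudogene could have been split otherwise.

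Desmosomes and plakins anchor keratin filaments to the cell border, and some of their genes differed between the lines. Of 18 such genes, 0 were higher and 6 lower in Hey than in SKOV3 parental cells, 0 and 6 in PGCCs and 1 and 7 in daughter cells. For the 12 of them averaging 1 TPM or more the median difference was -0.89, -1.33 and -1.28, against -0.29, -0.35 and -0.38 over the 14988 genes. Of the latter, 24.2%, 29.6% and 29.5% were called lower in Hey and 11.5%, 13.4% and 12.3% higher. The counts of the list are over all 18 genes, also those averaging under 1 TPM, which the shares leave out. JUP, which encodes plakoglobin, had 0.0295 TPM in Hey parental cells, 0.293 TPM in Hey PGCCs and was listed at 0 in Hey daughter cells, against 40.03, 128 and 24.5 TPM in SKOV3. DSP, which encodes desmoplakin, had 15.8, 13.0 and 14.0 in Hey and 110, 135 and 73.2 in SKOV3. Between states, 0 genes of the list were higher and 2 lower in Hey PGCCs than in parental cells (PKP4 at -1.16 and PLEC, the plectin gene, at -1.03). Of the 14988 genes, 7.67% were called higher and 5.22% lower there. In SKOV3 PGCCs 4 were higher, led by PLEC (1.69), JUP (1.65) and PPL (1.52), and 0 were lower. The shares of the 14988 genes were 9.94% and 4.96%. The SKOV3 difference of all genes followed GC content in this comparison, and that trend was not removed for this list. In daughter cells compared with PGCCs 1 was higher and 2 were lower in Hey, and 1 was higher and 4 were lower in SKOV3, among them JUP (-2.33). These counts compare with 9.95% and 8.13% of the 14988 genes in Hey and 14.6% and 9.25% in SKOV3. Against parental cells 0 were higher and 2 lower in Hey daughter cells, and 1 was higher (PKP2, 1.84) and 1 lower (DSG2, -1.37) in SKOV3. The shares of the 14988 genes here were 6.31% and 3.73% in Hey and 15.1% and 6.34% in SKOV3.

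VIM, the vimentin gene and the main intermediate filament gene of mesenchymal cells, was more abundant than all 10 keratins together in Hey. Its TPM was 7341, 4975 and 4115 in Hey and 2889, 2004 and 973 in SKOV3, so in SKOV3 PGCCs and daughter cells the summed keratins exceeded it. VIM was higher in Hey than in SKOV3 by 1.35, 1.31 and 2.08 in the 3 states. Of the 10 other intermediate filament genes VIM was called lower in SKOV3 daughter cells, by -1.57 against parental cells and -1.04 against PGCCs, and 0 were called in the remaining 4 comparisons within a line. Of the 14988 genes, 6.34% and 9.25% were called lower in the former comparisons. In the remaining 4 the share lay between 3.73% and 9.95% for each direction. NES and SYNM, the nestin and synemin genes, were lower in Hey than in SKOV3 in all 3 states.

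Among 15 epithelial transcription factor genes, 2 were higher and 7 lower in Hey than in SKOV3 parental cells, with the same counts in PGCCs and 2 and 5 in daughter cells. Over the 14988 genes 11.5%, 13.4% and 12.3% were called higher and 24.2%, 29.6% and 29.5% lower in the 3 states. ELF3, an ETS factor of epithelia, was listed at 0 in Hey parental and daughter cells and reached 0.318 TPM in Hey PGCCs, against 76.4, 149 and 105 in SKOV3. TFAP2C ran the other way, with 10.5, 12.03 and 29.7 in Hey and at most 0.488 in SKOV3. EHF, another ETS factor, rose from 0.0982 TPM in Hey parental cells to 12.2 TPM in Hey PGCCs and stood at 0.248 TPM in Hey daughter cells. In SKOV3 it stood at 21.0, 28.2 and 54.0 TPM and was highest in daughter cells. KLF5, a factor of basal and glandular epithelia, was lower in daughter cells than in PGCCs of both lines, by -1.20 in Hey and -1.47 in SKOV3. How many of all genes were lower in both lines was not computed. Within lines the list had 1 gene higher and 0 lower in Hey PGCCs and 0 and 0 in SKOV3 PGCCs against parental cells. Of the 14988 genes, 7.67% and 5.22% were called higher and lower there in Hey and 9.94% and 4.96% in SKOV3. For daughter cells against parental cells it had 1 and 1 in Hey and 1 and 2 in SKOV3. The shares of genes were 6.31% and 3.73% in Hey and 15.1% and 6.34% in SKOV3. Against PGCCs daughter cells had 1 and 3 in Hey and 0 and 2 in SKOV3, where the shares were 9.95% and 8.13% in Hey and 14.6% and 9.25% in SKOV3.

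The epithelial character of the lines was checked with other markers. PAX8, a factor of the Müllerian epithelium, had a TPM between 54.7 and 136 in all 6 libraries. EPCAM, an epithelial adhesion gene, had at most 1.43 in Hey and 68.8, 43.6 and 8.15 in SKOV3. CDH1, the E-cadherin gene, was listed at 0 in Hey parental cells and PGCCs, had 0.0283 in Hey daughter cells and 1.47, 4.35 and 8.35 in SKOV3, so this defining epithelial marker was close to absent in Hey. MUC16 did not exceed 1.59 and WT1 did not exceed 4.10. EPCAM was lower in SKOV3 daughter cells than in SKOV3 parental cells (-2.93) and PGCCs (-2.28), while CDH1 was higher in SKOV3 daughter than parental cells (1.92). Of the 5 markers of this list 2 were higher and 2 lower in that last comparison, where 15.1% and 6.34% of the 14988 genes were.

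Markers of other cell types were also read. All 4 mesothelial markers reached a TPM of 1 in some library, and their sum ranged from 9.69 to 27.4 TPM in Hey and from 41.3 to 71.5 TPM in SKOV3. Among them, MSLN, the mesothelin gene, was lower in daughter cells than in parental cells of both lines (-4.02 in Hey and -3.58 in SKOV3). Others of the list were higher there, namely CALB2 in Hey (2.36) and UPK3B (2.47) and LRRN4 (1.60) in SKOV3, and the list medians were 0.17 and 0.91. Of 6 fibroblast markers 4 reached 1, with sums from 0.212 to 3.61 TPM in Hey and from 11.8 to 28.2 TPM in SKOV3, highest in SKOV3 daughter cells through COL1A1 (16.3). The leukocyte marker PTPRC had at most 0.425 and CD3E was listed at 0 throughout, with 1 of 4 markers (CD68) above 1 in any library. Their sum ranged from 45.7 to 69.7 TPM in Hey and from 1.503 to 20.5 TPM in SKOV3. Of 3 endothelial markers CDH5 reached 33.2 to 48.5 in Hey, while PECAM1 and VWF stayed at or below 0.315. The sum of the 3 was at most 2.88 in SKOV3. The part of these differences in the keratin results was not tested. Mitochondrial transcripts took between 2.64% and 14.8% of the TPM, and leaving them out ended 1 keratin call, that of KRT80 given above, and added 1, KRT81 in Hey daughter cells against PGCCs.

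For each of the 7 members averaging 10 TPM or more, the 3 most similar of 8571 other genes were found by the Pearson correlation of log2(TPM + 1) over the 6 libraries. These are descriptions of 6 points from 2 lines, chosen as the highest among all genes compared. KRT19 was most like NFYA (0.997), S100A4 (0.996) and TTI2 (0.996), and KRT17 most like ETS2 (0.999), FTH1 (0.999) and UCA1 (0.996). For KRT5 these were TMEM139 (1.00), PRAME (1.00) and MGA (0.999), and for KRT80 CNNM4 (0.995), CPT1A (0.995) and OTUD5 (0.993). The abundant keratins had other neighbours. KRT7 was nearest to LMAN2 (0.991), DDB1 (0.986) and XPNPEP1 (0.982), KRT8 to HGS (0.993), FAM174C (0.990) and RNF126 (0.985), and KRT18 to AARS1 (0.979) and COLGALT1 (0.979), neither of which was among the 3 genes nearest to its partner KRT8.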

How the data were processed

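Total RNA of 6 libraries was sequenced, 1 per line and state. The authors mapped the reads to the human transcriptome (hg38) with salmon 0.14.1, and fastp is named in the submitters' processing notes. The deposited values are TPM per gene symbol, and the columns sum to between 911825 and 920497. How transcripts were joined into genes and which annotation was used are not given in the sources used here. TPM holds no read counts, so depth per gene is unknown and no counting interval is given.

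Differences were taken on log2(TPM + 1), which understates changes of low genes, and called at 1 (2-fold), with no test for 1 library against 1. limma 3.58.1 (R 4.3.3, eBayes with trend, Benjamini-Hochberg adjustment) was fitted on genes averaging 1 TPM or more, with state and line as terms. GC content and length are those of canonical transcripts of GENCODE 44 (GRCh38). A lowess trend (fraction 0.3, 2 passes) was removed as an alternative. The other alternatives were a pseudocount of 0.1, median-ratio scaling, mitochondrial genes left out, filters, and thresholds of 1.5-fold and 3-fold. The 31-base words were compared over all GENCODE transcripts. Named are all members, at most 3 called genes per list and comparison with a TPM of at least 5, and the 3 most similar genes, of which 1 is not reported here. Genes named to describe a marker list or as the family members reaching a TPM of 5 were chosen after their values were seen. Among the members, KRT5 and KRT8 were matched in the promoter table, and the KRT8 window, at an alternative start, is not printed. KRT6A, KRT7, KRT17, KRT18, KRT19, KRT80, KRT81 and KRT86 were not. The members and lists were chosen with earlier results of these data known. Scripts were tested on simulated data and used Python 3.11.15.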

Additional observations from a re-analysis of the deposited data

Results flagged for a closer look

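KRT7 and KRT80 were looked at again because they moved in opposite directions in the 2 lines. In daughter cells compared with PGCCs, the difference in log2(TPM + 1) of KRT7 was 1.44 in Hey and -0.93 in SKOV3. That of KRT80 was 1.87 in Hey and -1.09 in SKOV3. Whether Hey and SKOV3 differ here was not tested, since there is 1 library of each kind. After removal of the trend in GC content and length the values became 1.28 and -0.38 for KRT7 and 1.62 and -0.87 for KRT80.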

How the results depend on the processing

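Among the counts of called members, those that moved by more than 1.5 times were these. For PGCCs against parental cells of SKOV3 the count of 4 became 0 with the GC and length trend removed, 7 at 1.5-fold and 0 at 3-fold. For the same comparison in Hey the count of 2 became 1 at 3-fold. For daughter against parental cells of Hey the count of 3 became 6 with a pseudocount of 0.1, which added KRT17, KRT81 and KRT86, all under a TPM of 2 there. For Hey against SKOV3 daughter cells the count of 5 became 3 at 3-fold. The counts by limma moved by less under all 5 alternatives, and 0 called differences changed sign under the 4 alternatives run for single genes. Adding the pseudogenes of KRT8 and KRT18 changed no summed TPM by more than 1.5 times. No paired analysis was possible because each condition has 1 library and no replicate numbers pair libraries beyond the line, which is already a term of the limma fit. TPM without read counts gives no precision for scarce members.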
